A study of Arabidopsis thaliana with 6 samples.

Results

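Late embryogenesis abundant (LEA) proteins were described at the transcript level in siliques, the seed-bearing fruits of Arabidopsis. The members were the genes whose deposited description names a late embryogenesis abundant protein or LEA protein, leaving out COR47, ERD10, COR15A and COR15B. This rule, which uses no measured value, found 73 of the 31608 genes and loci in the table. Siliques of wild-type Col-0 plants and of the mutant mee45-1 were both collected 4 days after pollination. The labels call it silique in one field and seed in another, and describe no other treatment. Each genotype had 3 polyA libraries, and the values are the authors' means per genotype, so no spread between libraries can be given and the intervals below cover counting error alone. The series text calls them biological repeats, while the extraction protocol speaks of duplicate collection, and neither says whether the plants were grown separately. The p-values of the authors' deposited table therefore rest only on how these libraries varied, and that variation may be technical.

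LEA proteins are known as mostly small and hydrophilic proteins that accumulate late in seed development, when the embryo acquires tolerance to drying, and in other tissues that lose water. Many have no fixed structure in solution and become ordered on drying, and several protect membranes and enzymes against dehydration or freezing in the test tube. In seeds their genes are known targets of the B3-domain factor ABI3 and of bZIP factors such as ABI5 and EEL, which act with the hormone abscisic acid (ABA) through promoter elements called the ABRE and the RY element. The LEA_2 domain is a different matter. It also occurs in the large group of NDR1/HIN1-like membrane proteins, some of which act in defence, and these carry the description "hydroxyproline-rich glycoprotein".

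Both kinds were among the members. By textbook class, 14 belonged to LEA_4, 3 to LEA_1, 2 each to LEA_2, LEA_3, PvLEA18 and AtM, and 1 to the seed maturation proteins (SMP). A further 34 were described as hydroxyproline-rich glycoproteins, and 13 had other LEA descriptions and no class here. Among these 13 is AT3G24600, whose description, LEA protein of group 2, is the same as that of the LEA_2 gene AT2G44060. The families other than LEA_2 (LEA_1, LEA_3, LEA_4, PvLEA18, SMP and AtM), with 24 members, are called classical below. The deposited gene ontology terms, which the rule did not use, separated the groups. A membrane term was given to 31 of the 34 hydroxyproline-rich members and to 3 of the 24 classical ones, whereas the cytosol was given to 1 and to 13. Defence response and signal transducer activity were each given to 12 hydroxyproline-rich members and to 0 classical ones. In the RefSeq annotation of TAIR10.1, 26 of the 34 hydroxyproline-rich genes had a single exon, and 10 of the 14 LEA_4 genes had 2. Coding lengths ran from 414 to 966 bases in the hydroxyproline-rich group and from 207 to 1908 bases in LEA_4.

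The sequences before 6 genes are shown because they set 4 of the 6 LEA_4 genes with decreases in mee45, and the 1 such LEA_1 gene, beside the hydroxyproline-rich gene with the smallest p. The window of AT1G72100, also of LEA_4, overlaps a neighbouring gene and is not shown. Each is the 250 bases before the annotated gene start in RefSeq TAIR10.1, read 5′ to 3′ in the direction of the gene. Capitals mark the ABRE core ACGTG and the RY core CATGCA on either strand. Overlapping matches, as in the palindrome CACGTG, count as 1 site.
AT5G44310, chr5:17849537-17849786, minus strand: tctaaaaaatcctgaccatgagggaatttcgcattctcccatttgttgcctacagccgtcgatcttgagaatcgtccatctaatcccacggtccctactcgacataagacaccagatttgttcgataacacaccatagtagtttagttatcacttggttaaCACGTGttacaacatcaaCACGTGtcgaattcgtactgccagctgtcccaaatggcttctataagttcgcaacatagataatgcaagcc
AT4G21020, chr4:11227937-11228186, plus strand: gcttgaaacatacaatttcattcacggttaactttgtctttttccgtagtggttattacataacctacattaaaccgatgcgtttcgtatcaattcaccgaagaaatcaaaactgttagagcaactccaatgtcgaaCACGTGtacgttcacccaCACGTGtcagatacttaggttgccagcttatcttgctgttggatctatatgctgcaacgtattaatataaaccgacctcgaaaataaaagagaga
AT3G02480, chr3:511970-512219, plus strand: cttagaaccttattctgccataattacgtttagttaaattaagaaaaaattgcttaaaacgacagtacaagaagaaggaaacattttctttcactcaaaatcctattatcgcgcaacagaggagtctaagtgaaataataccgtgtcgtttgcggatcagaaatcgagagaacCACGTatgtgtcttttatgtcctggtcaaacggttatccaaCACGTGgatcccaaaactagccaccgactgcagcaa
LEA7 (AT1G52690), chr1:19619474-19619723, plus strand: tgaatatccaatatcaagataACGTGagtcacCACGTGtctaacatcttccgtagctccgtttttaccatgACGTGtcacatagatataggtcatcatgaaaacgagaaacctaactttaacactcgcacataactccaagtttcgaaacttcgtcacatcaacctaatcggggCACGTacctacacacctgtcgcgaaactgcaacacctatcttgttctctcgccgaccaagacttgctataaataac
LEA18 (AT2G35300), chr2:14863413-14863662, minus strand: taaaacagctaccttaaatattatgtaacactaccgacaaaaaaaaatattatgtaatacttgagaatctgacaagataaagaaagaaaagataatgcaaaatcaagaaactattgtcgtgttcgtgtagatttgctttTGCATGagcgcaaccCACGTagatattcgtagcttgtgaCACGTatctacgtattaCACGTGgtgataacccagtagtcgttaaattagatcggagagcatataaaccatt
AT2G27080, chr2:11563683-11563932, plus strand: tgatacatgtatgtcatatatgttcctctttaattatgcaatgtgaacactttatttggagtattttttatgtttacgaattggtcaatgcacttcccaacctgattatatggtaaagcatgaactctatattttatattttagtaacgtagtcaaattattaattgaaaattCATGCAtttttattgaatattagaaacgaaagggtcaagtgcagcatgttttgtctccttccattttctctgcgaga

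In the first 5 of these windows 2 to 4 ABRE cores were found, and LEA18 also held an RY core, while AT2G27080 held an RY core and no ABRE core. An ABRE core was present before 18 of the 24 classical genes (75.0%), before 10 of the 34 hydroxyproline-rich genes (29.4%) and before 22.9% of 27443 protein-coding genes. At least 2 ABRE sites were found before 15 classical genes (62.5%), 3 hydroxyproline-rich genes (8.82%) and 4.98% of all protein-coding genes. The RY core stood before 4 classical genes (16.7%), 6 hydroxyproline-rich genes and 8.43% of all protein-coding genes. Among the classical genes the ABRE core occurred before 7 of the 8 that fell in mee45 and before 11 of the 16 others. At least 2 sites were found before 7 of these 8 (87.5%) and 8 of these 16 (50.0%). The 16 include 2 genes without counts and 5 with too few for a fold, and the difference was not tested. No ABRE core was found before the 6 hydroxyproline-rich genes that fell, 1 of which had an RY core. AT4G36600, a LEA_4 gene that did not pass the test, held 5 ABRE sites, the most of any member. Among the classical genes the windows before AtLEA4-1, AT1G72100 and AT2G18340 overlap a neighbouring gene. A match describes the letters of the window and shows neither a bound factor nor a cause.

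**Figure D1:**
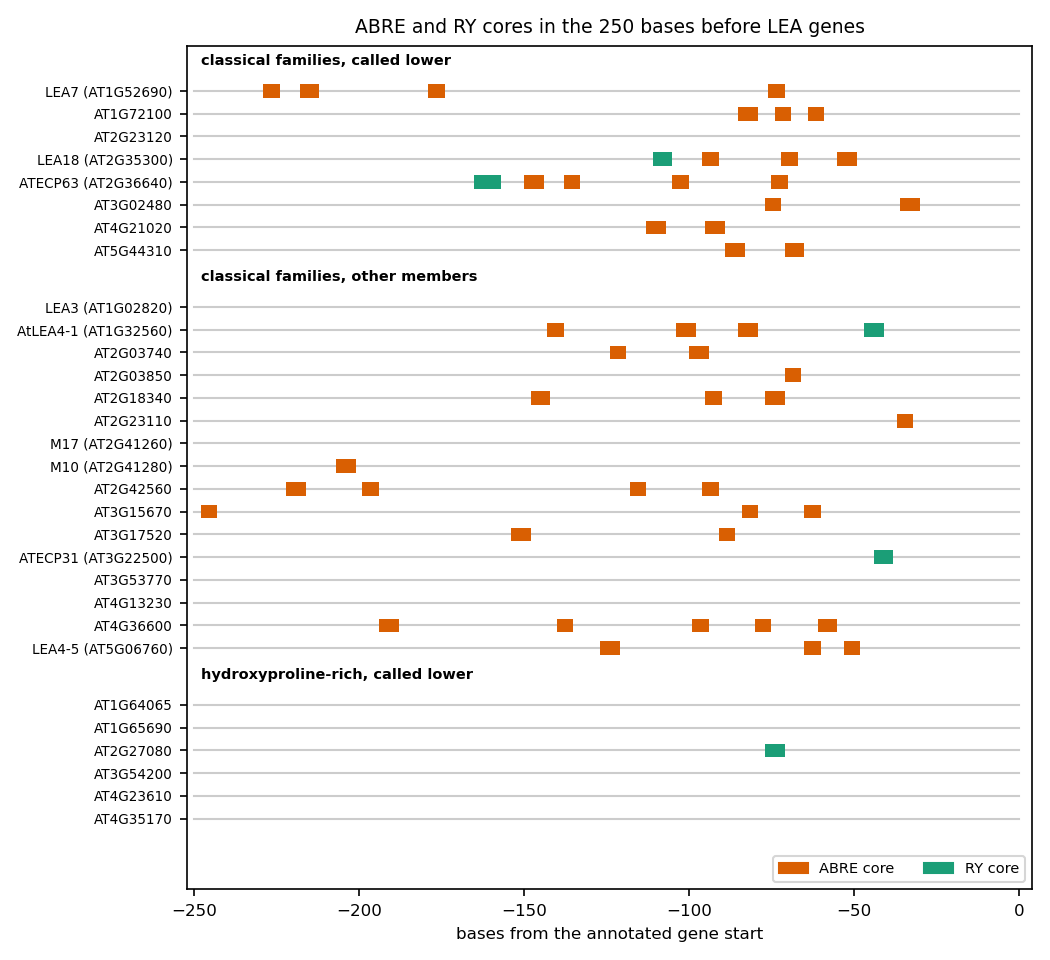
Positions of the ABRE core (orange) and the RY core (green) in the 250 bases before the annotated start of each gene, on an axis in bases with the start at 0. Most classical LEA genes held ABRE cores whether or not they fell in mee45 (7 of 8 and 11 of 16), and the 6 hydroxyproline-rich genes that fell held none. At least 2 ABRE sites were found before 7 of these 8 classical genes and 8 of these 16.

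The libraries as a whole set the frame. The mean library held 20242476 counts for Col-0 and 20530953 for mee45. MEE45 (AT4G00260), the targeted gene, had 62 summed counts in Col-0 and 3 in mee45. Scaled to the same depth, mee45 held 4.77% of the wild-type amount, with an exact 95% interval from counting of 0.958% to 14.6%. Markers of embryo, endosperm, seed coat, valve and pollen were detected in both genotypes, with 0 of the 30 listed genes at 0 in either. Summed marker levels were 88.1 FPKM in Col-0 and 86.2 FPKM in mee45 for 5 embryo genes, 59.3 and 70.7 for 9 endosperm genes, and 723 and 782 for 6 seed coat genes. They were 324 and 330 for 4 valve genes and 82.1 and 110 for 6 pollen genes. Most of the embryo sum came from ATML1 alone, at 69.0 FPKM in Col-0 and 73.2 FPKM in mee45. Likewise BAN, at 466 and 573 FPKM, made up most of the seed coat sum, and VGD1, at 43.2 and 67.1 FPKM, most of the pollen sum. These sums therefore say little about the other genes of their lists. Called lower and higher were 2 and 0 of the embryo, 1 and 5 of the endosperm, 2 and 2 of the seed coat, 1 and 2 of the valve and 1 and 0 of the pollen genes. Over all genes tested, the shares called lower and higher were 9.15% and 6.67%. The embryo genes called lower were WOX8 and WOX9, with log2 fold changes of -0.74 and -0.48. The part of tissue proportions in the LEA results was not tested. In whole siliques, fewer cells of a type and less RNA per cell cannot be told apart.

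The comparison of the genotypes asked how the mutant's siliques differed in LEA transcripts. A gene was called where the authors' deposited table gave it an adjusted p under 0.05. Of the 73 members, 68 had counts and were tested, with no other filter on low values. Of these 15 fell in mee45 (22.1%) and 2 rose (2.94%), and 51 did not pass the test. Among all 25434 genes tested, 9.15% were called lower and 6.67% higher. The 5 members without a count in either genotype were M10, AT3G53770, AT5G05657, AT1G54890 and AT4G27400. The median log2 fold change, mee45 over Col-0 from mean FPKM, was -0.14 over the 60 members with a fold and 0.0035 over the 23629 genes with one. The remaining 8 tested members had 3 or fewer summed counts in each genotype and get no fold.

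Levels differed widely among members. In FPKM, which is per length, AT1G17620, AT2G44060, AT2G23120 and AT3G62580 together made up 59.3% of the summed LEA level in Col-0 and 59.2% in mee45. Under 1 FPKM in both genotypes lay 32 members. All members together had 1083 FPKM in Col-0 and 981 FPKM in mee45. By counts, a separate measure, they took 0.106% and 0.0967% of the total. The abundant members therefore hold the total. Calls of a decrease lay on both sides of a mean over both genotypes of 10 FPKM. Of the tested members, 3 of the 15 at or above it fell (20.0%), and 12 of the 53 below it (22.6%). They were rare among the scarcest members. Of the 41 members at 1 FPKM or more in either genotype 14 fell (34.1%), and the only other member that fell was AT1G72100.

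**Figure D2:**
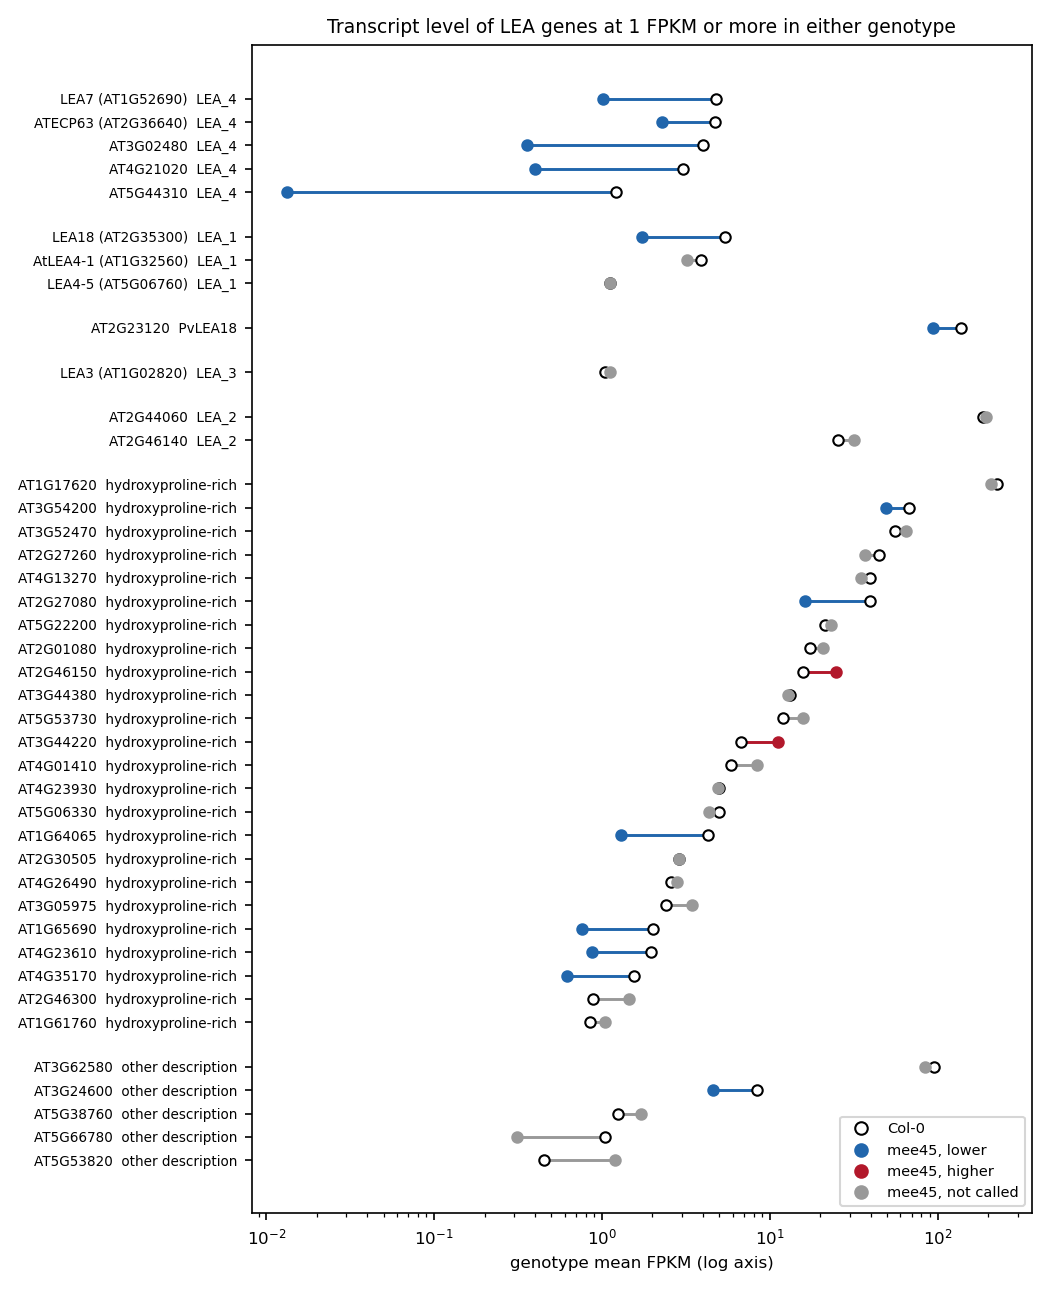
Genotype mean FPKM (log axis) of the 41 LEA genes at 1 FPKM or more in either genotype, by family, with Col-0 as open circles and mee45 as filled circles coloured by the call. Of the 5 LEA_4 genes shown, AT3G02480, AT4G21020 and AT5G44310 are in the plot only through their Col-0 level, so their lower position is partly set by that choice. LEA7 and ATECP63 are above 1 FPKM in both genotypes, at 1.01 and 2.29 FPKM in mee45. The open and filled circles of AT1G17620 and AT2G44060, the most abundant genes, lie close together.

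LEA_4, the family whose repeated short motifs form helices on drying, had 6 of the 14 members chosen by description lower (42.9%) and 0 higher in mee45. Over all genes tested, the shares called were 9.15% lower and 6.67% higher. At an unadjusted p under 0.05 in the authors' deposited table, 7 LEA_4 members were lower and 0 higher. Of all 25434 genes tested, 3425 were lower and 2889 higher at that threshold. The median log2 fold change of LEA_4 was -1.81 over 12 members with a fold, 11 of them below 0 and 1 above. Over all 14 tested members the median was -0.25 with log2(FPKM + 1) and -0.92 with log2(FPKM + 0.1). It was -1.21 over these 14 with the members without a fold entered as 0. The summed level of the family was 20.6 FPKM in Col-0 and 5.75 FPKM in mee45, which is 27.9% of the Col-0 sum. Apart from the genes that the rule left out, a further 2 LEA_4 genes carry other descriptions and are not in these counts. UNE15 had 30 summed counts in Col-0 and 71 in mee45, at 1.24 (0.59 to 1.89; adjusted p = 0.118, unadjusted 0.0242, in the authors' deposited table), and AT3G53040 had 28 and 17, at -0.79 (-1.70 to 0.18). Neither was called, and UNE15 lay in the opposite direction to the 6 that fell. The difference between this family and the other members was not tested.

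AT5G44310 (chromosome 5, 17847781 to 17849536) had a mean of 1.22 FPKM in Col-0 and 0.013 FPKM in mee45, from 95 summed counts and 1. Scaled to the same depth, mee45 held 1.04% of the wild-type level, with an exact 95% interval from counting of 0.0260% to 5.92% (adjusted p = 1.23e-06 in the authors' deposited table). It was thus close to undetected in the mutant. AT1G72100 (chromosome 1, 27127170 to 27128978) had 41 summed counts in Col-0 and 3 in mee45, a level of 7.21% (1.43% to 22.6%; adjusted p = 1.96e-05 in the authors' deposited table). AT3G02480 (chromosome 3, 512220 to 513036), whose coding length of 207 bases is the shortest of the family, had means of 3.98 and 0.357 FPKM. That is a log2 fold change of -3.48, with a counting interval on the log2 scale of -4.53 to -2.49 (adjusted p = 3.05e-04 in the authors' deposited table). AT4G21020 (chromosome 4, 11228187 to 11229616) had means of 3.05 and 0.40 FPKM and a log2 fold change of -2.93 (-3.56 to -2.32; adjusted p = 4.73e-06 in the authors' deposited table). These genes fell more than 7-fold.

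LEA7 (AT1G52690, chromosome 1, 19619724 to 19621534), studied as a protector of membranes and enzymes during drying, had means of 4.81 FPKM in Col-0 and 1.01 FPKM in mee45, a log2 fold change of -2.25 (-2.67 to -1.76; adjusted p = 9.34e-04 in the authors' deposited table). A gene on the opposite strand, AT1G52695, overlaps LEA7 over 297 bases and also fell, at -0.64, and with no strand of the library given the reads of the overlap cannot be told apart. ATECP63 (AT2G36640, chromosome 2, 15356830 to 15358619), first described as an embryonic cell protein, had the smallest change of the called LEA_4 genes. Its means were 4.71 and 2.29 FPKM, and its log2 fold change was -1.04 (-1.27 to -0.80; adjusted p = 0.00406 in the authors' deposited table).

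The 8 other LEA_4 members did not pass the test, and each was under 1 FPKM in both genotypes. AT2G42560, with 27 summed counts in Col-0 and 3 in mee45, had a level of 11.0% (2.13% to 35.6%; adjusted p = 0.0592 in the authors' deposited table). The uncalled member with the highest mean level, AT2G18340, had 0.763 and 0.653 FPKM and a log2 fold change of -0.22 (-0.73 to 0.30). AT3G17520 and AT3G15670 had log2 fold changes of -0.84 and -1.37 from 39 and 15 summed Col-0 counts. AT2G03850 and AT4G36600 were at -0.24 and 0.10, from 14 summed Col-0 counts each. AT2G03740, with 2 and 0 summed counts, and AT4G13230, with 3 and 3, get no fold.

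LEA_1 proteins, which carry a helix-forming region at the amino end, gave 1 lower gene of 3. LEA18 (AT2G35300, also called LEA4-2) had means of 5.39 FPKM in Col-0 and 1.73 FPKM in mee45, a log2 fold change of -1.64 (-2.11 to -1.17; adjusted p = 0.00104 in the authors' deposited table). AtLEA4-1 (AT1G32560) had 3.89 and 3.22 FPKM, at -0.27 (-0.60 to 0.08), and LEA4-5 (AT5G06760), a gene known for its response to water deficit in vegetative tissue, had 1.11 and 1.12 FPKM, at 0.0043 (-0.54 to 0.55). Neither passed the test. The 3 genes of this small family thus did not share a call, although all 3 held 3 ABRE sites before the gene.

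Of the PvLEA18 genes, AT2G23120 was the most abundant classical gene. It had means of 137.9 FPKM in Col-0 and 93.7 FPKM in mee45, a log2 fold change of -0.56 (-0.61 to -0.48; adjusted p = 0.00414 in the authors' deposited table). Without it, the classical members summed to 32.1 FPKM in Col-0 and 13.0 FPKM in mee45. Its neighbour AT2G23110, 475 bases away on the same strand, had 1 summed count in Col-0 and 0 in mee45. In LEA_3, LEA3 (AT1G02820) had 1.04 and 1.11 FPKM, at 0.09 (-0.58 to 0.75), and did not pass the test. The LEA_3 genes SAG21 and ATDI21 carry other descriptions and are not members. SAG21 had 79.5 FPKM in Col-0 and 43.8 FPKM in mee45, at -0.86 (adjusted p = 2.57e-04 in the authors' deposited table). ATDI21, at -0.52, did not pass the test. The seed maturation protein gene ATECP31 had 2 and 3 summed counts, and M17, of the AtM family, had 1 and 1, so these late-seed genes were at or near 0 in both genotypes.

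LEA_2 proteins are folded and less hydrophilic than the classical classes. AT2G44060 (LEA26), one of the most abundant members, had 185 FPKM in Col-0 and 194 FPKM in mee45, a log2 fold change of 0.07 (0.03 to 0.10; adjusted p = 0.839 in the authors' deposited table). AT2G46140 (LEA27) had 25.6 and 31.6 FPKM, at 0.31 (0.19 to 0.41; adjusted p = 0.103 in the authors' deposited table). The counting intervals of both exclude 0 while the test between libraries was not passed. AT3G24600, described as group 2 but given no class here, fell and is reported below with the other descriptions.

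**Figure D3:**
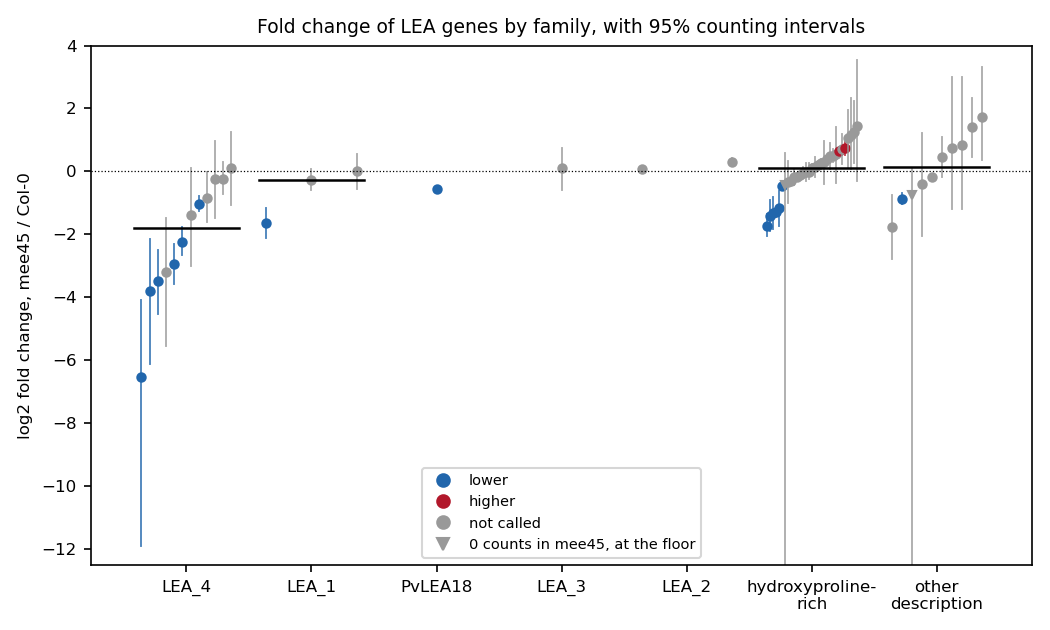
Log2 fold change of mean FPKM, mee45 over Col-0, for each LEA gene with a fold, by family. Points are coloured by the call in the authors' deposited table, vertical lines are exact 95% counting intervals, horizontal bars are medians of families with at least 3 such genes, triangles are genes at 0 counts in mee45 entered at the floor of 3 counts (their intervals include no change and run off the axis), and the dotted line is the median of all genes. LEA_4 spans from -6.52 to 0.10 with a median of -1.81, and the hydroxyproline-rich genes spread to both sides of their median of 0.11.

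The hydroxyproline-rich genes had 6 lower and 2 higher of 33 tested, or 18.2% and 6.06%, beside 9.15% and 6.67% of all genes tested. The median log2 fold change of the group was 0.11 over 31 genes with a fold. Their summed level was 596 FPKM in Col-0 and 556 FPKM in mee45. AT2G27080 (chromosome 2, 11563933 to 11567504) had the smallest p of all members. Its means were 39.8 FPKM in Col-0 and 16.2 FPKM in mee45, a log2 fold change of -1.29 (-1.38 to -1.18; adjusted p = 4.52e-12 in the authors' deposited table). AT1G64065 had 4.28 and 1.30 FPKM, at -1.72 (-2.04 to -1.36; adjusted p = 3.22e-06 in the authors' deposited table). These were the clearest decreases of the group.

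AT1G65690 had means of 2.01 and 0.76 FPKM, at -1.40 (-1.90 to -0.90), and AT4G35170 had 1.55 and 0.62 FPKM, at -1.32 (-1.83 to -0.81). Their adjusted p-values in the authors' deposited table were 0.00257 and 0.0288. AT4G23610 had 1.97 and 0.873 FPKM, at -1.17 (-1.72 to -0.63; adjusted p = 0.0448 in the authors' deposited table). AT3G54200, far more abundant, had 67.3 and 49.3 FPKM, at -0.45 (-0.53 to -0.38; adjusted p = 0.00116 in the authors' deposited table). The genes that fell thus lay between 1.55 and 67.3 FPKM in Col-0, with none among those under 1 FPKM in both genotypes. The defence annotation was carried by 0 of these 6 and by 12 of all 34 hydroxyproline-rich genes, and this difference was not tested.

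Both genes that rose were hydroxyproline-rich. AT2G46150 (chromosome 2, 18961283 to 18962423) had means of 15.7 FPKM in Col-0 and 24.7 FPKM in mee45, a rise of 0.65 on the log2 scale (0.53 to 0.77; adjusted p = 4.57e-04 in the authors' deposited table). It lies 637 bases after AT2G46140 on the same strand, described above. AT3G44220 had 6.74 and 11.3 FPKM, a rise of 0.74 (0.53 to 0.93; adjusted p = 0.0143 in the authors' deposited table). The most abundant member, AT1G17620, had 224 and 209 FPKM, at -0.10 (-0.14 to -0.07), and did not pass the test. Of the 12 genes with the defence annotation 11 were tested, 1 of which rose and 0 fell. Among all genes tested, 6.67% were called higher and 9.15% lower. At an unadjusted p under 0.05 in the authors' deposited table, 3 of the defence genes were higher and 0 lower. Of all 25434 genes tested, 2889 were higher and 3425 lower at that threshold.

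The other 25 tested hydroxyproline-rich genes did not pass the test, and they ranged from 224 FPKM in Col-0 to a single count. Several were abundant in both genotypes. AT3G52470 had 55.9 FPKM in Col-0 and 65.1 FPKM in mee45, at 0.22 (0.14 to 0.28), and AT2G27260 had 44.8 and 36.7 FPKM, at -0.29 (-0.36 to -0.20). AT4G13270 had 39.8 and 35.0 FPKM, at -0.18 (-0.27 to -0.10), and AT5G22200 had 21.3 and 23.0 FPKM, at 0.11 (-0.03 to 0.25). The uncalled gene with the smallest adjusted p was AT4G01410, with 5.90 and 8.37 FPKM, at 0.50 (0.30 to 0.70; adjusted p = 0.0818 in the authors' deposited table).

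The scarcer AT4G05220 had 14 summed counts in Col-0 and 33 in mee45, at 1.26 (0.28 to 2.23) and did not pass the test. AT5G53730 (NHL26), linked to sugar export in the phloem, had 12.1 and 15.9 FPKM, at 0.39 (0.23 to 0.54). AT3G20590 had 4 summed counts in Col-0 and none in mee45; the counting interval for the mee45 level reaches 149% of Col-0 and so includes no change. It shares a stretch of 567 bases at 90.7% identity with AT3G20600, so the split of reads is uncertain. AT2G35970, with 0 and 1 summed counts, shares 636 bases at 98.6% identity with AT4G09590. AT2G30505 overlaps its neighbour NET4B over 156 bases on the same strand, and had 2.88 and 2.87 FPKM.

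Among the 13 members with other descriptions, 11 were tested and 1 fell (9.09%, beside 9.15% of all genes tested). AT3G24600 had means of 8.34 FPKM in Col-0 and 4.59 FPKM in mee45, a log2 fold change of -0.86 (-1.03 to -0.68; adjusted p = 0.00212 in the authors' deposited table). The most abundant, AT3G62580, had 95.3 and 84.3 FPKM, at -0.18 (-0.23 to -0.12), and did not pass the test. AT5G66780 had 1.04 and 0.31 FPKM, at -1.75 (-2.79 to -0.76; adjusted p = 0.101 in the authors' deposited table). AT5G53820 had 15 summed counts in Col-0 and 39 in mee45, at 1.42 (0.47 to 2.32; adjusted p = 0.144 in the authors' deposited table), and AT5G38760 had 39 and 54, at 0.46 (-0.17 to 1.08). AT5G60520 had 5 summed counts in Col-0 and none in mee45; the counting interval reaches 108% of Col-0 and so includes no change. AT5G54370 had 0 and 1.

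No pair of neighbouring members had both genes called. AT1G52680, 697 bases from LEA7 on the opposite strand, had 6 summed counts in Col-0 and 20 in mee45, at 1.72 (0.35 to 3.32; adjusted p = 0.119 in the authors' deposited table), against -2.25 for LEA7. In the 5 pairs of members with no protein-coding gene between them, 3 pairs held 1 called gene and the other two none. In all, 17 members overlap another annotated gene, among them 6 of the 15 that fell. Besides AT1G52695, the listed partners of those 6 on the opposite strand were not called or had 0 counts.

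A response to water deprivation was annotated to 8 members, and these crossed the families. LEA18 and AT3G02480 fell, while AtLEA4-1, LEA4-5, AT2G44060, AT2G46140 and the hydroxyproline-rich genes AT1G52330 and AT3G44380 did not pass the test. AT3G44380, of the last, had 13.2 FPKM in Col-0 and 12.9 FPKM in mee45, at -0.04 (-0.20 to 0.14).

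Genes of the LEA classes with other descriptions, 20 in all, gave 6 lower and 1 higher of 15 tested, or 40.0% and 6.67%. The shares over all genes tested were 9.15% lower and 6.67% higher, so the share called higher was that of all genes. LEA14 (AT1G01470), a LEA_2 protein, had means of 44.8 FPKM in Col-0 and 20.1 FPKM in mee45, at -1.15 (adjusted p = 4.99e-09 in the authors' deposited table). Dehydrins are LEA proteins that bind membranes through a lysine-rich segment. The dehydrin gene AT2G21490 had 257 summed counts in Col-0 and 3 in mee45, 1.15% of the Col-0 level (0.236% to 3.40%; adjusted p = 8.51e-08 in the authors' deposited table), and XERO1 (AT3G50980) was at -1.37 (adjusted p = 1.03e-04 in the authors' deposited table). The 1 that rose was the seed maturation protein gene AT5G27980, by 1.06 from 52 summed counts to 111 (adjusted p = 0.0267 in the authors' deposited table). EM1 and EM6, the LEA_5 genes of late seed maturation, were listed at 0 counts in both genotypes. RAB18, an ABA-induced dehydrin gene, had 435 and 484 summed counts, at 0.15, and did not pass the test. The most abundant genes of the list, the dehydrin genes AT1G54410 and ERD14, did not pass it either. AT1G54410 had 942 FPKM in Col-0 and 1017 FPKM in mee45, and ERD14 had 545 and 462 FPKM. The list as a whole summed to 1662 FPKM in Col-0 and 1576 FPKM in mee45.

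**Figure D4:**
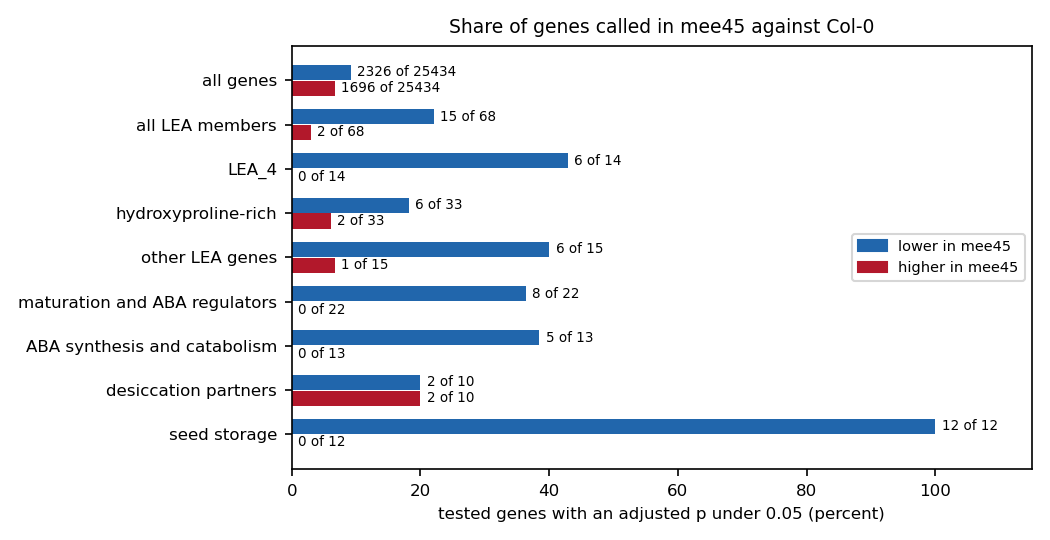
Share of tested genes with an adjusted p under 0.05 in the authors' deposited table, lower (blue) and higher (red) in mee45, for all genes, the LEA members, their 2 largest families and 5 related lists, with counts beside the bars. LEA_4 had 6 of 14 genes lower and 0 higher, against 9.15% and 6.67% of all genes tested.

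The regulators and partners of LEA genes are set beside all 25434 genes tested, of which 9.15% were called lower and 6.67% higher. At an unadjusted p under 0.05 in the authors' deposited table, 3425 of all genes were lower and 2889 higher. Of 22 maturation and ABA regulators, 8 fell and 0 rose, with 10 and 0 at an unadjusted p under 0.05 in the authors' deposited table, and a median log2 fold change of -0.37. The LEC1-like factor L1L, the B3-domain factor FUS3 and the bZIP factor BZIP67 had the smallest p, at -1.88, -1.88 and -2.44. The bZIP factors split, with EEL at -2.08 and called lower, and ABI5 at 0.27 (adjusted p = 0.355 in the authors' deposited table). Of 13 genes of ABA synthesis and catabolism, 5 fell and 0 rose (6 and 3 at an unadjusted p under 0.05 in the authors' deposited table), with a median of -0.28. The dioxygenase genes NCED9 and NCED3, which make the ABA precursor, were at -3.09 and -2.16, and CYP707A3, which breaks ABA down, was at -1.29.

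Of 10 genes that act beside LEA proteins in dry seeds or heat, 2 fell and 2 rose (20.0% each), beside 9.15% and 6.67% of all genes tested. The median log2 fold change of this list was 0.35. PER1, a seed peroxiredoxin, had 678 summed counts in Col-0 and 4 in mee45, at -7.38, and GOLS2, a galactinol synthase, was at -0.82. STS, which acts in the synthesis of seed oligosaccharides, rose by 0.35. The 12 storage protein and oleosin genes all fell, with a median of -7.63 and summed levels of 3484 FPKM in Col-0 and 65.1 FPKM in mee45. The cruciferin genes CRC and CRB and the albumin gene SESA2 had the smallest p, at -12.13, -12.28 and -8.77. Set beside them, the 14 LEA_4 genes took 20.6 FPKM in Col-0, so per length the reserve transcripts were far more abundant in the wild type than the LEA_4 transcripts.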

How the data were processed

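PolyA RNA from siliques, isolated with Trizol, gave 6 libraries of paired-end reads from an Illumina machine, per the labels' protocols. TAIR10 is the build in the submitters' processing notes, which list edgeR, RSEM, Cufflinks, fastp 0.18.0, TopHat2 2.0.3.12 and Bowtie2 2.2.8 and assign no role to any. The deposited estimated counts and FPKM values are the authors' means per genotype. Multiplied by 3, 95.0% of the Col-0 and 95.1% of the mee45 counts above 0 became whole, within 0.01 counts of the mean. The deposited log2 ratios, p-values and adjusted p-values of the comparison are the authors'. Recomputing a Benjamini-Hochberg adjustment over the 25434 genes tested gave their adjusted values. The log2 fold changes reported are of mean FPKM, computed anew without a pseudocount. No test across libraries can be run on genotype means.

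Counting intervals are exact (Clopper-Pearson, 95%) on summed counts, 3 times the mean, scaled to equal depth. Reads without molecular identifiers are not independent molecules, so intervals and floors cover counting error only. For medians and plots, a gene at 0 in one genotype was entered at 3 counts over the group, and none at or under 3 in both gets a fold. Folds and intervals were checked on data simulated with counting error alone, for genes above a minimum count in Col-0. Genes scarcer than that, and spread between libraries, were not covered by the check.

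Members and lists were chosen with earlier results of these data known. Named are, per family, up to 8 called members per direction by smallest p, the uncalled member with the highest mean FPKM and members at 0 in one genotype; per other list, up to 3 called genes by smallest p. Other names (in LEA_4, AT2G42560, AT3G17520, AT3G15670, AT2G03850, AT4G36600 and AT4G13230, and AT2G46140, LEA4-5, AT5G66780, AT5G53820, AT5G38760, AT5G53730, AT2G30505, AT3G52470, AT2G27260, AT4G13270, AT5G22200, AT4G01410, AT4G05220, AT1G52330, AT3G44380, AT1G52680, UNE15, AT3G53040, AT5G27980, EM1, EM6, RAB18, AT1G54410, ERD14, SAG21, ATDI21, ATML1, BAN, VGD1, EEL and ABI5) were chosen after their values were seen. All 73 members matched RefSeq TAIR10.1, which gave gene models and sequences; the upstream sequence of a further LEA_4 gene is not reported here. Near-identical copies are transcript stretches of at least 150 bases at 90% identity (BLAST+ 2.17.0). Computation used Python 3.11.15, pandas 2.3.3 and scipy 1.17.1.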

Additional observations from a re-analysis of the deposited data

How the results depend on the processing

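No paired analysis was possible because the values used are genotype means, and for the same reason the planned fits per library (replicate block, DESeq2, no low-count filter and leaving out each replicate) were not run. Counts of members called lower (15 in all, 6 in LEA_4, 6 hydroxyproline-rich, 6 of the other LEA genes) stayed within 1.5 times under stricter and looser thresholds, fold minima and a minimum of 10 counts, with 12 to 18 over all members. Members called higher, 2 in the main count and all hydroxyproline-rich, numbered 1 at an adjusted p under 0.01 and 0 with a change of at least 2-fold. At an unadjusted p under 0.05 they numbered 8, of which 5 were hydroxyproline-rich, and 2889 of all 25434 genes tested were higher at that threshold. The other LEA genes called higher, 1 in the main count, numbered 0 with the stricter adjusted threshold of 0.01 and 2 without adjustment. A pseudocount shrinks scarce genes by construction. With log2(FPKM + 1) and log2(FPKM + 0.1) the median over all 68 tested members was -0.020 and -0.021, against -0.14 over the 60 with a fold. In LEA_4 it was -0.25 and -0.92 over 14 members, against -1.81 over the 12 with a fold. These medians thus differ in the genes that enter as well as in the pseudocount, and the 2 effects were not separated. With log2(FPKM + 1), 8 of the 17 called members left their counting interval, and all 17 kept their direction. With members of a mean count of at least 10 the LEA_4 median was -2.25 and the hydroxyproline-rich median -0.0068 against 0.11, a change of sign within a value close to 0, as fewer genes enter. With members without a fold entered as 0, chosen after seeing the data, the medians were -0.0017 over members, -1.21 in LEA_4 and 0 in the hydroxyproline-rich group. Neither total-count nor median-ratio scaling moved these 3 medians by 0.1, and total-count scaling moved no called member beyond its counting interval. As a share of summed FPKM, LEA genes took 0.152% in Col-0 and 0.138% in mee45. Intervals are widest for scarce genes: 32 of 73 members lay under 1 FPKM in both genotypes, among them AT1G72100, which was called lower.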
